A study of Mus musculus with 11 samples.

Results

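The 10 genes described here encode the NF-κB transcription factor subunits and proteins that regulate them. They are the subunit genes Rela, Rel, Relb, Nfkb1 and Nfkb2, and, grouped here as inhibitors, Nfkbia, Nfkbib, Nfkbie, Nfkbiz and Tnfaip3. All were chosen by name among the 32469 gene symbols of a bulk RNA-seq count table. The table covered 11 libraries, each from a mouse of its own, 5 untreated and 6 given anti-LAG-3. All 11 animals were wild-type (genotype WT) female C57BL/6 mice of 8 weeks that carried tumors of Lewis lung carcinoma (LLC), a mouse lung carcinoma cell line, under the skin of the left and the right flank. The treated mice received 200 μg of anti-LAG-3 (clone C9B7W), an antibody against the inhibitory receptor LAG-3, by intraperitoneal injection on day 14 and again on day 16, and the controls received no injection that the labels name. For the excision of tumors in this experiment the paper's methods give days 14 and 18 and the series text gives days 14 and 21. A figure legend of the paper places the removal of the compared tumors on day 18, when treatment had begun. The sequenced cells, labelled T cells, were sorted from tumors as CD8+PD-1+Ly108+TIM-3- cells, a gate for precursor exhausted T cells, which was narrowed by a further surface marker. The effect of LAG-3 blockade on these cells is the question of the comparison, and the sources name no litter or day that links the 2 groups. The sample titles carry a further code beside the primer barcode, which untreated 2 and 3 share with anti-LAG-3 10, and untreated 4 with untreated 5, and the other 6 libraries have a code each.

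NF-κB works as a dimer of Rel family proteins. In resting cells IκB proteins retain the dimers in the cytoplasm, and signals from the T cell receptor, CD28 or receptors of the TNF family lead to IκB phosphorylation, IκB degradation and entry of the dimer into the nucleus. Several of the inhibitors are themselves targets of NF-κB, and this forms a negative feedback loop that is well known in T cells. The mRNA levels given here do not measure nuclear NF-κB or protein amounts.

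Promoter sequences of the family are shown first, for the genes in which the DNA element bound by NF-κB was found. RefSeq promoter windows of the GRCm38.p6 build, from 250 bases before to 50 bases after a transcription start, were present for 7 of the 10 genes and were searched on both strands for the κB decamer, the general form of the site that NF-κB dimers bind. A match was found in 5 of the 7 genes (Rel, Nfkb2, Nfkbia, Nfkbie and Tnfaip3), and in 5.14% of all 27025 genes with a window. Each stretch below ends at the base before the start and holds 130 bases, with the letters of any match, on either strand, in capitals. RefSeq holds 3 windows for Nfkb2 and 2 for Tnfaip3, and for each gene the stretch shown comes from the window whose matches lie before the start and within 130 bases of it. Of the others, both further Nfkb2 windows hold matches outside such a stretch and the further Tnfaip3 window holds none. The stretches shown are Nfkbia at chr12:55492648-55492777 (minus strand), Rel at chr11:23770970-23771099 (minus strand), Nfkb2 at chr19:46304607-46304736 (plus strand), Nfkbie at chr17:45555570-45555699 (plus strand) and Tnfaip3 at chr10:19015411-19015540 (minus strand).
Nfkbia: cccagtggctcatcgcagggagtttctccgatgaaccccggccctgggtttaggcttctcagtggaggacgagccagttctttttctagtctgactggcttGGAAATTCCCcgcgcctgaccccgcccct
Rel: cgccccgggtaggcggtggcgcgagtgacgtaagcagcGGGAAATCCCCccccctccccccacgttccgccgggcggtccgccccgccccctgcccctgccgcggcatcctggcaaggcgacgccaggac
Nfkb2: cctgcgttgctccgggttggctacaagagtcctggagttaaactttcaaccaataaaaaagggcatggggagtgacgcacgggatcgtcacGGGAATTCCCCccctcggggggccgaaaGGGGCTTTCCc
Nfkbie: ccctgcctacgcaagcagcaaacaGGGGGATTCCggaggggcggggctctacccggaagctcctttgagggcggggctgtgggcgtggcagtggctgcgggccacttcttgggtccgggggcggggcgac
Tnfaip3: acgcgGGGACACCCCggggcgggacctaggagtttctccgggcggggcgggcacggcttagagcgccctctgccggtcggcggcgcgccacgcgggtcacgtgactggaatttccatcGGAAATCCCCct

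In Nfkbia the capitals cover bases 29 to 20 before the start, and in Nfkb2 the match nearest the start covers bases 11 to 2 before it. Rel and Nfkb2 each hold a stretch in which matches on the plus and the minus strand overlap. The searched windows of Rela and Nfkbib held no match. RefSeq windows of Relb, Nfkb1 and Nfkbiz were not analysed here. The 5 genes with a match had log2 fold changes of both signs between the groups (below). None of these values passed adjustment, and a link between match and fold change was not tested.

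Total counts were 317449 to 1271063 in untreated and 313524 to 1901374 in anti-LAG-3 libraries. They went with the primer barcode given in the labels. Barcode 9 marked 3 libraries of each group, with 566144 counts or more, and the other 5 libraries, of barcode 8 (untreated 4 and anti-LAG-3 8, 10 and 11) and barcode 10 (untreated 2), had 451465 counts or fewer. The CD8 T cell markers Cd3d, Cd3e, Cd3g, Cd8a, Cd8b1 and Cd2 summed to 5031 to 5296 CPM (counts scaled to the depth of the library) in untreated and 5088 to 5584 CPM in anti-LAG-3 libraries. Of the markers of other cells, the 10 macrophage and monocyte genes summed to 28.4 to 58.3 and 24.8 to 153 CPM. Among them Cd68, under the filter, was above every untreated value in 5 of 6 anti-LAG-3 libraries (mean 11.2 without and 24.4 CPM with anti-LAG-3). Itgam and C1qc had lower means with anti-LAG-3. The 6 B cell genes summed to 6.30 to 19.4 and 0 to 25.5 CPM, and the neutrophil genes S100a8 and S100a9 were at 0 in all libraries. The 4 NK cell genes summed to 218 to 282 and 179 to 310 CPM, nearly all of it from Klre1, with Gata2 at 0, and the 7 epithelial and stromal genes to 140 to 204 and 153 to 214 CPM, nearly all of it from Pecam1. Lists of CD4 T cell, dendritic cell and erythroid genes summed to at most 8.86, 31.8 and 12.8 CPM. Of the genes behind the sort gate, Cd8a had 1163 to 1243 CPM in untreated and 1088 to 1301 CPM in anti-LAG-3 libraries, Pdcd1 (PD-1) 592 to 767 and 489 to 787 CPM, and Slamf6 (Ly108) a mean of 111 ± 10.6 CPM (SD, n = 5) without and 97.5 ± 14.2 CPM (SD, n = 6) with anti-LAG-3. Pdcd1 was below every untreated value in 4 of 6 anti-LAG-3 libraries, with a log2 fold change of -0.24 (SE 0.10, unadjusted p = 0.0267, adjusted 0.9996, edgeR's quasi-likelihood test). Slamf6 (-0.17, SE 0.12) and Tcf7 (-0.062, SE 0.18), a transcription factor of precursor exhausted cells, were also below 0, with groups that overlapped. The part of this in the results below was not tested. For TIM-3, against which the cells were selected, the gene Havcr2 lay under the filter, at 1.88 to 19.8 and 0 to 7.08 CPM. Lag3, the gene of the antibody's target, lay at 457 to 531 and 415 to 561 CPM. In bulk RNA, fewer cells of a kind and less of an mRNA in each cell cannot be told apart.

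All 10 genes passed the filter on low counts, which kept 6949 genes. Between genes, levels were compared as CPM per kilobase of the longest annotated transcript, and also as CPM alone. By the study's methods the primer barcode was added at the template-switching end of the cDNA, its 5′ end, before fragmentation, so reads that carry it start near that end, and for such reads a longer transcript gives no more reads. By their titles, libraries that share the further code are told apart only by this barcode, so their counts should come from reads that carry it. CPM alone is the scale for such reads. The sources used here do not state the part of the transcript that the counts cover. Nfkbia, which encodes IκBα, the inhibitor best known for rapid degradation and resynthesis, stood at the top of the family with a median of 1543 CPM per kb (range 1350 to 2293 over the 11 libraries). Tnfaip3, which encodes A20, a ubiquitin-editing enzyme that turns off signals upstream of the IκB kinase, came next with 214 CPM per kb (184 to 259). These genes held the first and the second place in every library. Nfkbib, which encodes IκBβ, followed with a median of 95.6 and Nfkbiz, which encodes the nuclear protein IκBζ, with 70.0 CPM per kb, and Nfkbib was above Nfkbiz in 9 of 11 libraries.

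Among the subunits, Rel, which encodes c-Rel, the subunit most typical of lymphocytes, was the highest, with a median of 48.0 CPM per kb (36.1 to 62.9). It lay above Nfkb2 (30.0 to 53.6 CPM per kb) in 9 of 11 libraries. Nfkb2 encodes p100, the precursor of p52 in the noncanonical pathway. Rela, which encodes p65, the main activating subunit of the canonical pathway, had a median of 35.3 CPM per kb (30.3 to 48.8). Per kb, Nfkb2 was above Rela in 6 of 11 libraries. Nfkbie (IκBε) had 28.5, Relb, the partner of p52, 22.5 and Nfkb1, which encodes p105 and p50, 15.4 CPM per kb, and Nfkbie exceeded Relb in 7 and Relb exceeded Nfkb1 in 8 of 11 libraries. With CPM alone, an alternative chosen after seeing the data, Nfkbia and Tnfaip3 again came first and second in every library, but Rel moved to the third place (median 359 CPM), above Nfkbiz (288) in 8 of 11 libraries. Nfkbiz lay above Nfkbib (197) and Nfkb2 (146) above Rela (95.9 CPM) in all 11 libraries on this scale, and Nfkb1 (63.3) above Relb (49.7 CPM) in 8 of 11. The order below Tnfaip3 thus depends on whether counts are divided by length. For reads that start near the 5′ end, the order by CPM alone applies. In raw counts, Nfkbia held between 48.1% and 59.1% of all reads on the 10 genes.

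**Figure D1:**
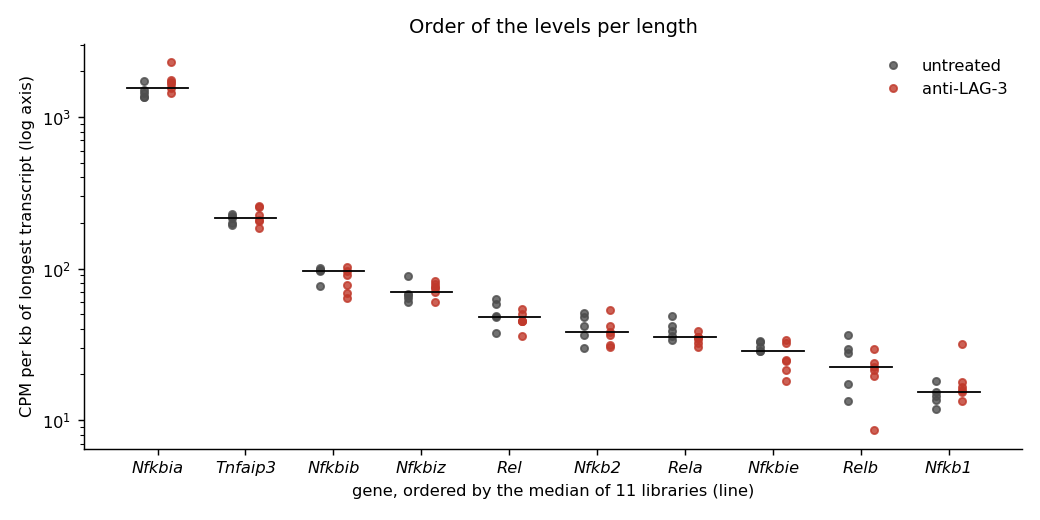
Level of each gene in CPM per kilobase of its longest annotated transcript (log axis), with a point for each of 5 untreated and 6 anti-LAG-3 libraries and a line at the median of all 11. Nfkbia lies at 1350 to 2293 and Tnfaip3 at 184 to 259, above the other genes in every library, whereas the ranges of Nfkb2 and Rela overlap. Below Tnfaip3 the order by CPM alone, the scale for reads from the 5′ end, is a different one.

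None of the 10 genes differed between the groups after adjustment over the 6949 genes that passed the filter. By edgeR's quasi-likelihood test the adjusted p was 0.9996 for each of them, and 0 of 6949 genes (0%) had an adjusted p under 0.05, against 258 genes (3.71%) at an unadjusted p under 0.05. DESeq2 and edgeR's likelihood ratio test likewise called 0 genes, with 163 and 307 genes at an unadjusted p under 0.05. Of the 10 genes, 2 had an unadjusted p under 0.05. These were Nfkbia, higher in anti-LAG-3 mice as were 1.71% of all genes at that limit, and Rela, lower as were 2.00% of all genes. The groups overlapped for all 10 genes, and did not for 0.475% of genes tested. By sign, 4 of the 5 subunits and 2 of the 5 inhibitors had a log2 fold change below 0, as did 48.9% of all genes tested, and the median over the 10 genes was -0.18 against 0.0040 over all genes. The values follow by role, with the span of each gene, all of them protein-coding, in the GENCODE M21 annotation of GRCm38.

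Rela (chr19:5637483-5648130, plus strand) had 97.7, 92.3, 133, 113 and 105 CPM in untreated mice 1 to 5, and 82.4 to 105 CPM with a median of 94.5 in anti-LAG-3 mice. No anti-LAG-3 library lay above the untreated range and 2 lay below it. The log2 fold change from untreated to anti-LAG-3 was -0.26 (SE 0.12, 95% interval -0.52 to -0.0032, unadjusted p = 0.0474 in edgeR's quasi-likelihood test). The highest untreated library was untreated 3, and without it the log2 fold change was -0.15.

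Rel (chr11:23736847-23770970, minus strand) had 437, 280, 470, 359 and 364 CPM in untreated mice and 269 to 404 CPM with a median of 336 in anti-LAG-3 mice. The untreated values spread almost as widely as all 11 values. Its log2 fold change was -0.19 (SE 0.11, 95% interval -0.42 to 0.046). The level of Rel followed depth to a degree, with a Pearson r of 0.52 between its log2 CPM and log2 total count over 11 libraries, given as a description.

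Relb (chr7:19606217-19629438, minus strand) was the least precisely measured subunit, with 8 to 118 reads per library. It had 64.9, 29.7, 61.4, 38.4 and 80.7 CPM in untreated mice and 18.9 to 64.8 CPM with a median of 48.5 in anti-LAG-3 mice. Both groups held low and high libraries, and the log2 fold change of -0.24 had an SE of 0.22. Relb, too, was higher in deeper libraries, with a Pearson r of 0.59 with log2 total count over 11 libraries.

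Nfkb1 (chr3:135584655-135691547, minus strand) had the only positive log2 fold change of the subunits, 0.29 (SE 0.19, 95% interval -0.097 to 0.67). It had 55.8, 62.6, 59.6, 74.3 and 48.8 CPM in untreated mice and 55.1 to 130 CPM with a median of 66.5 in anti-LAG-3 mice. The value of 130 CPM, from 55 reads, was that of anti-LAG-3 library 8, and the other 5 anti-LAG-3 libraries lay at 55.1 to 73.1 CPM, inside the untreated range. Without library 8 the log2 fold change was 0.11. The same library had the lowest Relb value, 18.9 CPM from 8 reads, where the others of its group had 42.9 to 64.8 CPM. Without library 8 the log2 fold change of Relb was -0.13.

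Nfkb2 (chr19:46304320-46312385, plus strand) had 185, 115, 160, 141 and 195 CPM in untreated mice and 117 to 206 CPM with a median of 143 in anti-LAG-3 mice. The anti-LAG-3 range thus reached beyond the untreated range at its upper end, and the log2 fold change was -0.16 (SE 0.14). The sign for Nfkb2 turned within barcode 8 (0.13) and with the further code of the titles as a covariate (0.50). Its counts are uncertain, since exons of Nfkb2 overlap those of Psd on the other strand and 14.9% of the distinct 50-base stretches of its transcripts are shared with transcripts of other genes.

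Of the inhibitors, Nfkbia (chr12:55489410-55492647, minus strand) was the most precisely measured, with 726 to 4433 reads per library. Untreated mice 1 to 5 had 2274, 2393, 2130, 2725 and 2144 CPM, and anti-LAG-3 mice had 2266 to 3618 CPM with a median of 2649. The highest untreated library, untreated 4, exceeded 4 of the 6 anti-LAG-3 libraries. The log2 fold change was 0.22 (SE 0.084, 95% interval 0.047 to 0.39), a ratio of 1.17, with an unadjusted p of 0.0147 and an adjusted p of 0.9996 (edgeR's quasi-likelihood test). The unadjusted p placed Nfkbia at rank 69 of 6949 genes. Nfkbia passed when every gene with at least 1 count was tested (adjusted p = 0.0443, edgeR's quasi-likelihood test), a fit that called 7 of 24024 genes. A single library, anti-LAG-3 10, set the upper end at 3618 CPM. It was also the shallowest library and had the highest summed level of macrophage and monocyte markers (153 CPM) and of immediate-early genes (6500 CPM), and the part of these in the result was not tested. Without it the log2 fold change was 0.13 (SE 0.067, unadjusted p = 0.0565, edgeR's quasi-likelihood test). With the further code of the titles as a covariate, chosen after seeing the data, the effect rests on this library against untreated 2 and 3, and Nfkbia had a log2 fold change of 0.69 (SE 0.12, adjusted p = 0.000327). Nfkbia was lower in deeper libraries, with a Pearson r of -0.56 with log2 total count over 11 libraries.

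The other IκB genes of the classical kind had the opposite sign. Nfkbib (chr7:28758251-28767512, minus strand) had 197, 158, 201, 202 and 206 CPM in untreated mice and 132 to 210 CPM with a median of 175 in anti-LAG-3 mice. Of its untreated values, 4 lay within 197 to 206 CPM, and untreated 2, from 48 reads, lay apart. The log2 fold change of Nfkbib was -0.20 (SE 0.12). With the further code of the titles as a covariate its sign turned, to 0.17. Exons of Nfkbib overlap those of Ccer2 and Sirt2, and 12.6% of the 50-base stretches of its transcripts occur in those of other genes, so its counts are uncertain.

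Nfkbie (chr17:45555703-45563169, plus strand) had 79.7, 69.2, 69.4, 74.3 and 80.7 CPM in untreated mice and 44.0 to 82.6 CPM with a median of 60.3 in anti-LAG-3 mice. Of the 6 anti-LAG-3 libraries, 4 were below and 1 was above every untreated value, and the log2 fold change was -0.28 (SE 0.15, unadjusted p = 0.0803, edgeR's quasi-likelihood test). Nfkbiz (chr16:55811375-55838899, minus strand) had 264, 247, 277, 366 and 279 CPM in untreated mice and 247 to 338 CPM in anti-LAG-3 mice, and the log2 fold change was 0.074 (SE 0.11). With the primer barcode as a covariate its sign turned, to -0.0032. Tnfaip3 (chr10:19000910-19015657, minus strand) had 1012, 883, 862, 983 and 947 CPM in untreated mice and 815 to 1146 CPM in anti-LAG-3 mice, with a log2 fold change of 0.073 (SE 0.085). The 95% interval for Tnfaip3, -0.10 to 0.25, is among the narrowest of the family, next to that of Nfkbia. With the further code of the titles as a covariate, chosen after seeing the data, the log2 fold change of Tnfaip3 was 0.40, outside that interval.

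**Figure D2:**
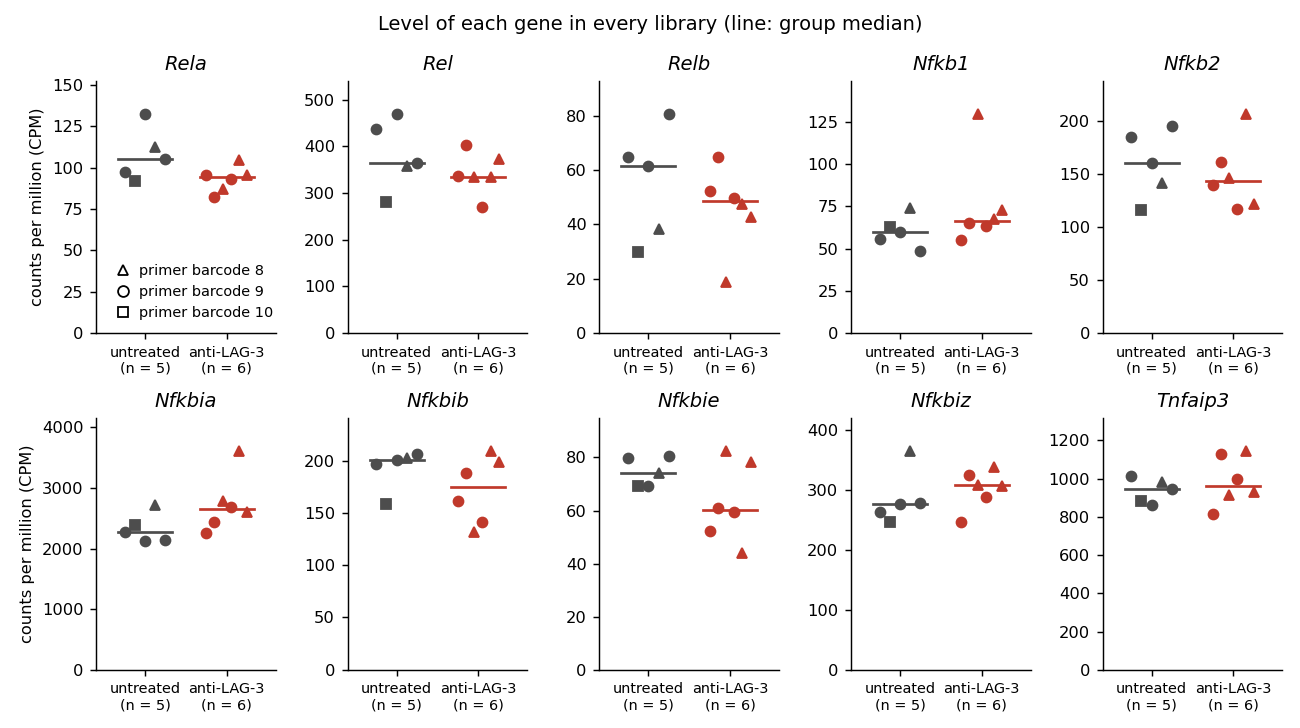
CPM of each gene in every library (linear axes from 0), 5 untreated and 6 anti-LAG-3, with a line at the group median and the marker shape giving the primer barcode. The groups overlap for all 10 genes, and anti-LAG-3 library 8 stands out for Nfkb1 at 130 CPM and for Relb at 18.9 CPM.

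Since depth went with the primer barcode, the comparison was repeated within barcode 9, which held 3 libraries of each group and the deeper ones. Among these 6 libraries, 6 of the 10 genes had an unadjusted p under 0.05, where 4.69% of the 9071 genes tested did, and the smallest adjusted p of the family was 0.988 (edgeR's quasi-likelihood test). The log2 fold changes there were -0.33 for Rela (SE 0.15), -0.33 for Rel (SE 0.14), -0.34 for Nfkb2 (SE 0.13), -0.28 for Nfkbib (SE 0.12), -0.40 for Nfkbie (SE 0.16) and 0.17 for Nfkbia (SE 0.066). For Rela, Nfkbib and Nfkbie, all 3 untreated libraries of barcode 9 lay above all 3 anti-LAG-3 libraries, a separation seen in 4.99% of the 6949 genes. Nfkbia overlapped there by a narrow margin, with a highest untreated value of 2274 and a lowest anti-LAG-3 value of 2266 CPM. Within barcode 8 a single untreated library stood against 3, so no spread could be measured in that arm and no test is drawn from it. The log2 fold changes there were -0.24 for Rela, -0.047 for Rel, 0.13 for Nfkb2, -0.19 for Nfkbib, -0.089 for Nfkbie and 0.12 for Nfkbia (alternatives chosen after seeing the data). The difference between the barcodes, which assumes that this lone library varies like the others, was farthest from 0 for Nfkb2, with a log2 fold change lower by 0.48 in barcode 9 (SE 0.31, unadjusted p = 0.141, adjusted 0.951). This interaction term, fitted with edgeR's quasi-likelihood test over the 10 libraries of both barcodes, called 0 of 7827 genes, with 378 at an unadjusted p under 0.05.

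With the barcode as a covariate over all 11 libraries, where the lone library of barcode 10 carries no weight, 4 of the 10 genes (Rela, Rel, Nfkbia and Nfkbib) had an unadjusted p under 0.05 against 4.71% of all genes, and the smallest adjusted p of the family was 0.9998 (edgeR's quasi-likelihood test). The log2 fold change of Nfkbia was then 0.16 (SE 0.072) and that of Rela -0.30 (SE 0.13).

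**Figure D3:**
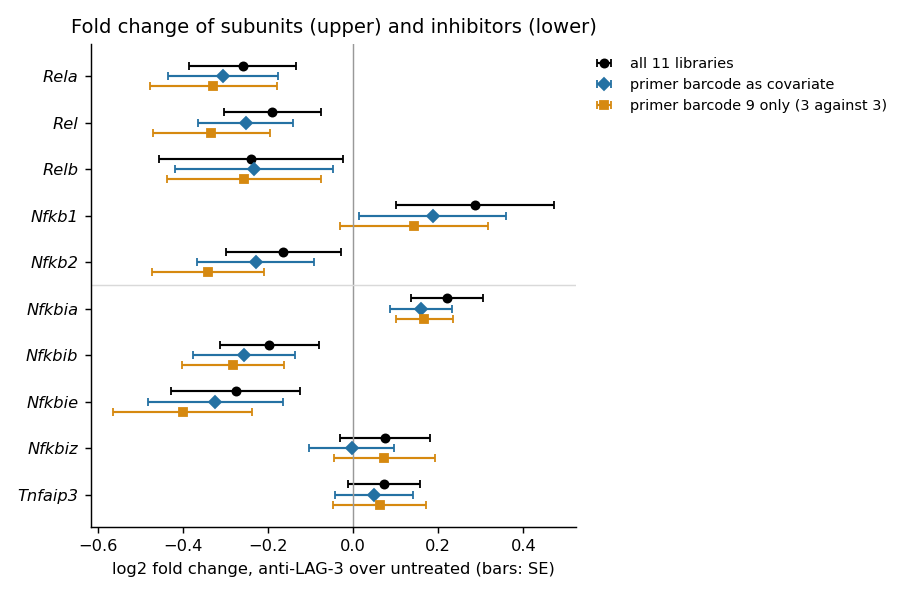
Log2 fold change from untreated to anti-LAG-3 of each gene with its SE, from all 11 libraries, with primer barcode as a covariate, and within the 6 libraries of barcode 9. Rela, Rel, Relb, Nfkb2, Nfkbib and Nfkbie lie below 0 in all 3 fits, Nfkbia, Nfkb1 and Tnfaip3 above 0, and Nfkbiz turns sign (-0.0032) with the covariate.

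The balance of inhibitor to subunit reads in a library does not depend on how depth is scaled, but it can still go with the primer barcode. Per read on Rela there were 23.3, 25.9, 16.1, 24.2 and 20.4 reads on Nfkbia in untreated mice 1 to 5, and 23.6 to 34.5 with a median of 29.2 in anti-LAG-3 mice. The groups overlapped between 23.6 and 25.9. Per read on Rel the ratio of Nfkbia was 4.53 to 8.54 in untreated and 6.03 to 10.8 in anti-LAG-3 mice. All 5 inhibitors together had 4.01 to 6.47 reads per read on the 5 subunits in untreated mice and 5.22 to 7.05 in anti-LAG-3 mice. In untreated mice this ratio was 4.01 to 4.61 in barcode 9, 6.00 in barcode 8 and 6.47 in barcode 10. In anti-LAG-3 mice it was 5.22 to 7.05 in barcode 9 and 5.84 to 7.04 in barcode 8. The group ranges thus mix barcodes that the groups hold in unlike numbers. These ratios join genes whose fold changes differ in sign, were chosen after their values were seen and are given without a test.

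Over all 11 libraries the genes did not vary as a block from mouse to mouse. Over the 45 pairs of genes and 11 libraries, the Pearson r of log2 CPM ranged from -0.85 to 0.66 with a median of 0.10, and 28 pairs were above 0. None passed an adjusted p of 0.05 by either measure, and 5 pairs had an unadjusted permutation p under 0.05 by Pearson's r and 8 by Spearman's rho. Within barcode 9, Nfkb2 had r = 0.94 with Nfkbib and 0.93 with Relb (exact permutation p = 0.00833 and 0.0125, not adjusted). Nfkbia and Nfkbib had r = -0.81 there (exact permutation p = 0.0389, not adjusted). All the values of a library share its total count, so pairs that follow depth can be correlated through it.

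By Pearson's r the pair farthest from 0 was Relb and Nfkb1, with r = -0.85 (permutation p = 0.00166, adjusted 0.0747 over 45 pairs) and rho = -0.75 (permutation p = 0.00959, adjusted 0.0890). Libraries with high Relb tended to have low Nfkb1. Library 8 of the anti-LAG-3 group lay at the end of this relation, and without it r was -0.65 (permutation p = 0.0402, adjusted 0.228). Leaving out the 2 libraries with Relb values farthest from its median gave r = -0.84, and within the 6 libraries of barcode 9 r was -0.57 (exact permutation p = 0.232). By Spearman's rho it was Nfkb1 and Nfkbia, with rho = 0.85 (permutation p = 0.00130, adjusted 0.0585) beside r = 0.49 (permutation p = 0.122, adjusted 0.421). Nfkb1 and Nfkbiz, at rho = 0.78, and Rela and Nfkbib, at rho = 0.77, were also farther from 0 by this measure than Relb and Nfkb1 (permutation p = 0.00618 and 0.00748, both adjusted to 0.0890).

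Among the inhibitors, Nfkbia and Nfkbiz had r = 0.66 and rho = 0.75 (permutation p = 0.0249 and 0.00989, adjusted 0.337 and 0.0890), with r = 0.65 after leaving out 2 libraries and 0.41 within barcode 9 (exact permutation p = 0.408). Nfkbiz and Tnfaip3 had r = 0.64 (permutation p = 0.0351, adjusted 0.337), and 0.81 within barcode 9 (exact permutation p = 0.0514). Nfkbib with the subunit genes Relb and Rel gave r = 0.64 for both, which did not pass adjustment (permutation p = 0.0331 and 0.0374, both adjusted to 0.337), beside rho = 0.36 and 0.38 (permutation p = 0.274 and 0.251, both adjusted to 0.664). For Relb and Nfkbib r was 0.35 without anti-LAG-3 library 8, 0.13 once the 2 libraries farthest in Relb were left out, and 0.87 within barcode 9 (exact permutation p = 0.0153), so the value depends on which libraries enter.

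**Figure D4:**
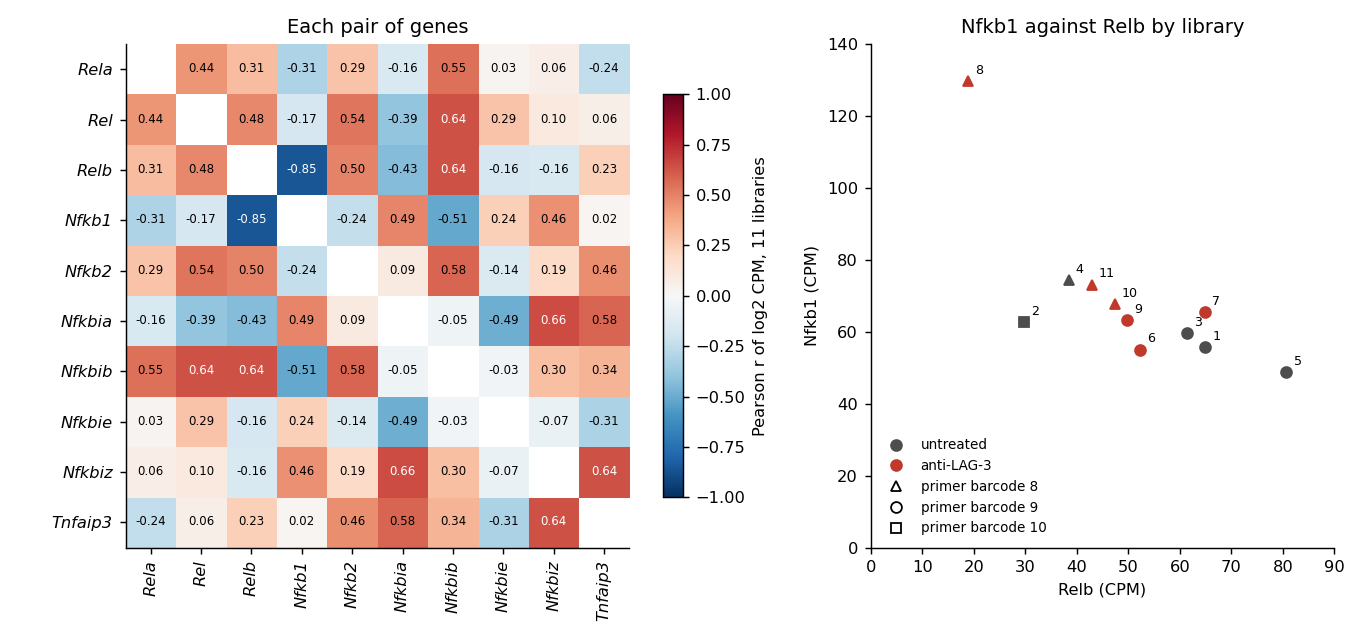
Left, the Pearson r of log2 CPM over 11 libraries for each pair of the 10 genes, from blue (-1) to red (1). Right, Nfkb1 against Relb in CPM by library, numbered 1 to 11, with colour for the group and shape for the primer barcode. Library 8 lies at 18.9 CPM of Relb and 130 CPM of Nfkb1, apart from the other libraries.

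Among 1782 other genes with a mean of at least 100 CPM, those whose log2 CPM was most like that of Nfkbia over the 11 libraries were Ccdc50 (r = 0.96), Rabac1 (r = 0.91) and Plp2 (r = 0.86). Those most like Rel were Jak1 (r = 0.82), Skil (r = 0.77) and Tnfrsf1b (r = 0.76). With so many genes and so few libraries high values of r arise readily, and these are given as a description.

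The rest of the pathway was described with 93 genes in 9 lists, of which 75 passed the filter. None was called after adjustment, and 2 were higher and 2 lower at an unadjusted p under 0.05 (edgeR's quasi-likelihood test), where 1.71% and 2.00% of all genes were. The median log2 fold change of the 75 genes was 0.016, against 0.0040 over all genes. Upstream, the IκB kinase list had 3 of 6 tested genes above 0, and its smallest unadjusted p belonged to Map3k14, the NIK kinase of the noncanonical pathway (log2 fold change -0.32, SE 0.22). The 7 genes of the arm from the T cell receptor through BCL10 and MALT1 were all tested, and 5 were above 0. Malt1, a protease and scaffold of this arm, had the smallest p, at 155 ± 15.8 CPM (SD, n = 5) without and 179 ± 23.4 CPM (SD, n = 6) with anti-LAG-3. Its log2 fold change was 0.19 (SE 0.11), with an unadjusted p of 0.0983 and an adjusted p of 0.9996 from edgeR's quasi-likelihood test.

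Otulin, a deubiquitinase of linear ubiquitin chains, had the smallest p in the list of ubiquitin-related genes set beside A20. It was at 41.2 ± 4.19 CPM (SD, n = 5) without and 29.9 ± 11.5 CPM (SD, n = 6) with anti-LAG-3. The groups overlapped, and the log2 fold change was -0.59 (SE 0.25, unadjusted p = 0.0257, adjusted 0.9996, edgeR's quasi-likelihood test). The 3 genes of LUBAC, the enzyme that makes those chains, had log2 fold changes of 0.055 to 0.13, the smallest p being that of Rnf31. Of the adaptors, 4 of 9 tested genes were above 0, led by p by Traf2 (-0.24, SE 0.22), and of the atypical IκB proteins and cofactors 2 of 5, led by p by Nfkbid (0.16, SE 0.15).

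Receptors that signal to NF-κB were divided, with 5 of 10 tested genes above 0. Il18r1, a chain of the interleukin-18 receptor, had a log2 fold change of 0.25 (SE 0.11), and Tnfrsf1b, TNF receptor 2, of -0.25 (SE 0.11). Of 10 tested genes for ligands of the TNF family, 8 were above 0, with a list median of 0.14, and the smallest p was that of Tnfsf8, the CD30 ligand (0.38, SE 0.24).

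Known target genes of NF-κB were evenly split, with 10 of 20 tested genes above 0 and a median of -0.0040. Myc, a growth-promoting transcription factor, had the smallest p, at 42.9 ± 11.0 CPM (SD, n = 5) without and 60.8 ± 12.5 CPM (SD, n = 6) with anti-LAG-3. Its log2 fold change was 0.51 (SE 0.19, unadjusted p = 0.0140, adjusted 0.9996, edgeR's quasi-likelihood test). Genes of the immediate-early response, which tissue digestion can also induce, had 12 of 16 tested genes above 0 and a median of 0.12. Their smallest p was that of Egr1 (0.57, SE 0.21), and their summed level was 5128 to 5629 CPM in untreated and 4895 to 6500 CPM in anti-LAG-3 libraries. Whether these genes and Nfkbia have a common source in these libraries was not tested.

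**Figure D5:**
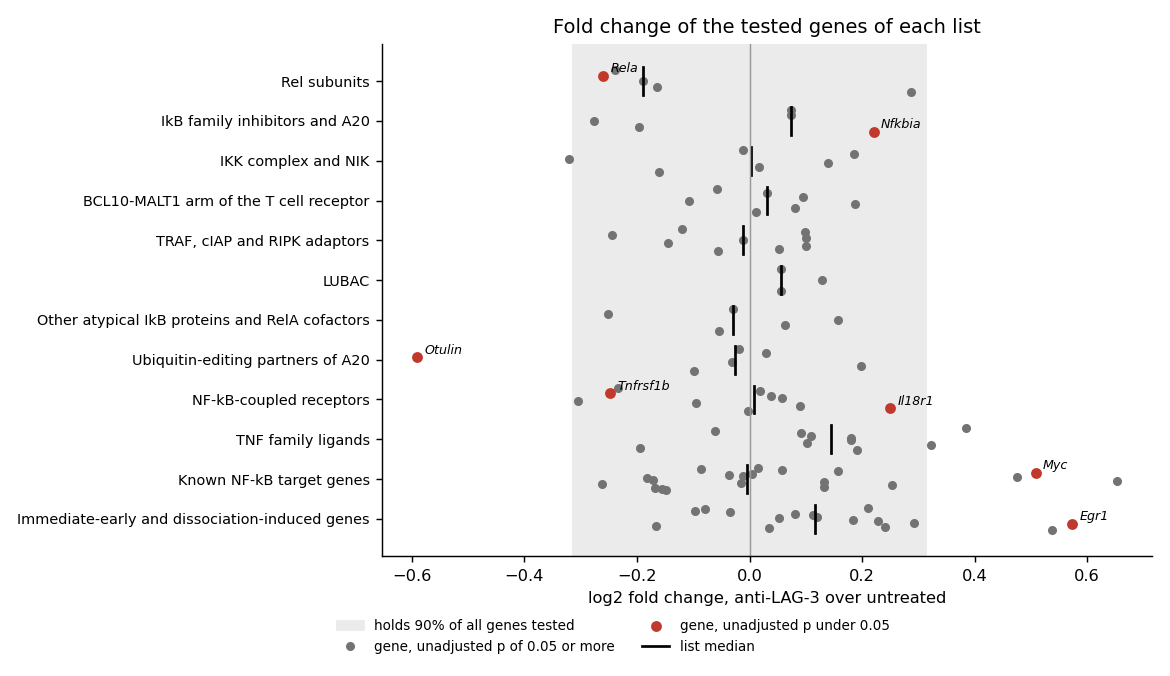
Log2 fold change from untreated to anti-LAG-3 of every tested gene in the 2 lists of family genes, the 9 pathway lists and the immediate-early list, with a bar at the list median, genes at an unadjusted p under 0.05 in red with their names, and a grey band of 0.31 either side of 0 that holds 90% of all genes tested. Otulin (-0.59) lies left of the band, Myc (0.51) and Egr1 (0.57) right of it, and no gene passed adjustment.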

How the data were processed

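The authors used cutadapt for trimming and Bowtie2 for alignment to GRCm38 reference RNA (versions 4.1 and 2.4.5 in the submitters' processing notes), and deposited raw counts per gene symbol, without molecular identifiers. Handling of multi-mapping reads and of strand is not given in the sources used here. Here, filterByExpr kept genes with 17.7 CPM or more (10 counts in a library of median depth) in 5 libraries and 15 counts in total, counts were normalized by TMM and tested with edgeR 4.0.16's quasi-likelihood test, with common, trended and tagwise dispersions from its estimateGLM functions and Benjamini-Hochberg adjustment at 0.05. CPM use TMM-scaled counts on the genes tested, except marker sums, which use total counts. Correlations used log2 CPM with a prior count of 2 and two-sided permutation tests of 100000 resamples, or all orders within barcode 9. P-values measure the spread between these libraries. The 3-count floor was 1.65 to 10.1 CPM, for counting error only.

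Genes named are all 10 genes, the called genes of each pathway list or else the gene with the smallest unadjusted p, Lag3, the sorting genes, and the 3 genes most like Nfkbia and Rel. Tnfrsf1b and single immediate-early and other marker genes were named after their values were seen. Of the lists and this rule, 3 genes are not reported here and were left out of the list counts. The members and lists were chosen with earlier results of these data known. Gene models came from GENCODE M21 for GRCm38 (not the authors' release), which held 96.3% of the 32469 symbols, and promoters from RefSeq. The tests were checked on simulated data. Other software was DESeq2 1.42.0 and R 4.3.3. Alternatives covered the test, normalization, filter, dispersion, primer barcode, title code, prior count, transcript length and each library left out.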

Additional observations from a re-analysis of the deposited data

Results flagged for a closer look

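Within each group, the highest and the lowest log2 CPM of every gene were compared with the others by Dixon's criterion, and 3 of the 20 sets held a library far from the rest, where about 1 in 20 is flagged by chance. Relb in anti-LAG-3 library 8 was low, at 4.43 log2 CPM (18.9 CPM from 8 reads, exact 95% Poisson interval 8.15 to 37.2 CPM, for counting error only), against 42.9 to 64.8 CPM in the other 5 libraries of its group. Nfkb1 in the same library was high, at 7.05 log2 CPM (130 CPM from 55 reads, interval 97.8 to 169 CPM), against 55.1 to 73.1 CPM in the other 5. Nfkbib in untreated library 2 was low, at 7.33 log2 CPM (158 CPM from 48 reads, interval 117 to 210 CPM), against 197 to 206 CPM in the other 4.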

How the results depend on the processing

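Of 110 fits of the 10 fold changes under single alternatives, 103 kept their direction and their side of an adjusted p of 0.05, and 110 of 110 fits with a library left out did. The sign turned for Nfkbiz with the primer barcode as a covariate (log2 fold change -0.0032) and within barcode 8 (-0.21), for Nfkb2 within barcode 8 (0.13) and with the title code as a covariate (0.50), and for Nfkbib with the title code (0.17). Nfkbia passed with the title code, at 0.69 (adjusted p = 0.000327), and when every gene with at least 1 count was tested, at 0.22 (adjusted p = 0.0443, edgeR's quasi-likelihood test). The latter fit tested 24024 genes and called 7, with 1086 at an unadjusted p under 0.05. The adjusted p of Nfkbia was 0.664 to 1 under all other alternatives. The number of genes at an unadjusted p under 0.05 was 163 with DESeq2, 485 with the title code, 425 within barcode 9 and 221 to 344 with a library left out. Genes called numbered 16 with the title code, 3 of them in the pathway lists, and 10 within barcode 8, 1 of them in those lists, a fit in which the lone untreated library is assumed to vary like the others. Causes were not tested. No unadjusted p is listed here for the fit within barcode 8, from which no test is drawn. In the other fits that of Nfkbia was 0.05 or more without untreated 3 and without anti-LAG-3 10. That of Rela was 0.05 or more with DESeq2, with the title code, with both other filters, with estimateDisp and without untreated 3, 4 or 5 or anti-LAG-3 7, 8 or 9.

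With a library left out, log2 fold changes ranged from 0.13 to 0.28 for Nfkbia, -0.31 to -0.15 for Rela, -0.27 to -0.10 for Rel, -0.42 to -0.12 for Relb, 0.11 to 0.37 for Nfkb1, -0.24 to -0.097 for Nfkb2, -0.25 to -0.14 for Nfkbib, -0.35 to -0.22 for Nfkbie, 0.036 to 0.16 for Nfkbiz and 0.019 to 0.12 for Tnfaip3. The order of levels per kb was the same with each library left out and with the union of exons as the length. With CPM not divided by length, an alternative chosen after seeing the data, Rel ranked 3, Nfkbib 5, Nfkb1 9 and Relb 10. The number of pairs with an adjusted permutation p under 0.05 was 0 with groups centred and with prior counts of 0.5 and 5, and 0 to 1 with a library left out. Relb and Nfkb1 passed without untreated 2 (r = -0.95, permutation p adjusted to 0.0117) and without anti-LAG-3 7 (r = -0.88, adjusted to 0.0495), and Nfkb1 and Nfkbia without anti-LAG-3 10 (r = 0.76, adjusted to 0.0279). The difference in mean log2 ratio of Nfkbia to Rela reads was 0.32 to 0.49 with a library left out and 0.47 within barcode 9, alternatives chosen after seeing the data, as were the fits with estimateDisp, within barcode 8 and with the title code. The last of these rests on anti-LAG-3 10 against untreated 2 and 3, the only libraries of both groups that share a code, and takes its spread from 2 pairs of untreated libraries. No paired analysis was possible because the labels give the groups no replicate number in common. Depth limits Relb most, with as few as 8 reads.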
